A study of Mus musculus with 10 samples.

Results

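The genes described here protect cells against oxidants and reactive metals. They encode the superoxide and peroxide enzymes, the enzymes that make glutathione and attach it to other molecules, the thioredoxin system, the metallothioneins, and the NRF2 regulator with some of its classical targets. Of 45 listed genes 41 were measured, among 12393 genes on the array that had a probe set carrying their symbol alone. A gene entered where the array's annotation gave exactly its symbol to a probe set, and where it had several the brightest on average over the 10 arrays stood for it. The choice used no difference between the groups. All 5 probe sets of Prdx1 also carried the symbol Gm21399, so Prdx1 was left out, and G6pdx, Prdx5 and Prdx6 were not analysed here.

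RNA came from the whole lung of 5 mice kept in intermittent hypoxia, a regime of repeated drops and recoveries of inspired oxygen, and of 5 mice kept in normoxia. All 10 were male C57BL/6 mice aged 6 to 8 weeks, with 1 Affymetrix Mouse Genome 430A 2.0 array per lung, and the series' design text calls the animals separate. The series' title calls the exposure chronic, and the sources used here do not give its oxygen levels, cycle or length. Whole lung mixes many cell types, so fewer cells of a type and less RNA per cell cannot be told apart. The surfactant gene Sftpc and the club cell gene Scgb1a1 stood at the top of all probe set levels, and the lowest of 9 lung markers, the endothelial gene Pecam1, stood at percentile 90.1.

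Normoxia arrays 2, 3 and 4 stood apart from the rest. The standard deviation over all probe sets was 1.893 to 1.932 on these 3 arrays, against 1.985 to 2.048 on the other 7. Among the 41 genes described here, 23 had their lowest level of all arrays on one of these 3, and 2 had it on normoxia array 1 or 5. The 4 genes past the test are therefore given with and without them, and without them 16 of 22626 probe sets on the whole array passed. The calls in the other gene lists below were not given without them. Over all genes, 12.5% passed the limma test at a Benjamini-Hochberg adjusted p below 0.05, 8.93% higher and 3.60% lower in intermittent hypoxia.

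As background, superoxide dismutases turn superoxide into hydrogen peroxide, and catalase, glutathione peroxidases and peroxiredoxins remove the peroxide. Glutathione and thioredoxin supply the reducing power and are themselves recycled by reductases that use NADPH. Many of these genes are induced by the transcription factor NRF2 when its inhibitor KEAP1 is modified by electrophiles. Metallothioneins are small cysteine-rich proteins that bind zinc and copper and scavenge oxidants, and their genes respond to zinc, through the factor MTF1, and to glucocorticoid hormones.

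Both metallothionein genes were lower in the lungs of mice exposed to intermittent hypoxia, and the mu-class glutathione transferase genes Gstm1 and Gstm2 were higher. These were 4 of 41 genes past the test (9.76%, against 12.5% of all genes), 2 higher (against 8.93%) and 2 lower (against 3.60%). No superoxide or peroxide enzyme, no member of the thioredoxin system and neither Nfe2l2 nor Keap1 passed. The median difference of the 41 genes was 0.06 on the log2 scale, against 0.01 over all genes, and 25 were positive and 16 negative. The balance turned to 17 positive and 24 negative with quantile normalization, and to 19 and 22 without normoxia arrays 2 to 4. Over all genes, 6593 differences were positive and 5800 negative. That balance turned too with quantile normalization, to 5728 positive and 6665 negative, and was 6312 and 6081 without normoxia arrays 2 to 4. At an unadjusted p below 0.05 stood 43.9% of the 41 genes, against 32.6% of all genes.

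The windows around the start of the metallothionein genes are shown because these 2 neighbouring genes were lower together and share a known metal-responsive element. The sequences are the RefSeq windows of build GRCm38.p6, from 250 bases before to 50 bases after the annotated start, on the plus strand at chr8:94178839-94179138 for Mt1 and chr8:94172368-94172667 for Mt2. Capitals mark every match to the metal response element core, searched as TGCACNC and TGCGCNC on both strands, where N is any base.
Mt1: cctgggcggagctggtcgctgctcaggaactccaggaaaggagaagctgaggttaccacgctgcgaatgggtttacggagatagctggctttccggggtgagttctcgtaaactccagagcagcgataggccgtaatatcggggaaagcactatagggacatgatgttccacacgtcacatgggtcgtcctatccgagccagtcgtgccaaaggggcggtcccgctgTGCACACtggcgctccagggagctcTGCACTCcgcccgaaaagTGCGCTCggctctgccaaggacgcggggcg
Mt2: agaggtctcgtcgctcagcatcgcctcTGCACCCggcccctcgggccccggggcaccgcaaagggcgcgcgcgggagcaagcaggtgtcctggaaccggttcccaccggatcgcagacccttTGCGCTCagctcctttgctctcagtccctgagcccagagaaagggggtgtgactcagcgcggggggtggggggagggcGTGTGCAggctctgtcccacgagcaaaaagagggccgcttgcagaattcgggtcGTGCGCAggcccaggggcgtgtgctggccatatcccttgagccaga

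The Mt1 window held 3 such matches and the Mt2 window 4, and the marked sites do not overlap. Counted from the annotated start, they began at -23, 2 and 20 in Mt1 and at -223, -128, -50 and 4 in Mt2. Those with a positive number lie after the start, not upstream of it. At least 1 match to either form was found in 28.2% of the 27025 genes with such a window, so the element is common. Of the 41 measured genes 35 had a window, and 11 of these (31.4%) held it. Gstm1, as well as Mt1 and Mt2, was among the 11, and Gstm2 was not. The antioxidant response element core, searched as TGACNNNGC on both strands, was found in 9 of the 35 (25.7%) and in 14.0% of all genes with a window. Mt2 was among the 9, while Mt1, Gstm1 and Gstm2 were not. The full glucocorticoid response element was found in 0 of the 35 windows and in 3 of the 27025. A pattern this rare would hardly occur in 35 windows, so its absence there is uninformative. A match describes these letters only and does not show that a factor binds there.

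Mt2 had the smallest adjusted p of the 41 genes. Its log2 levels were 10.06, 10.07, 10.41, 10.32 and 10.02 on hypoxia arrays 1 to 5, against 10.63, 10.88, 10.81, 10.51 and 10.45 on normoxia arrays 1 to 5. Every hypoxia array lay below every normoxia array, and Mt2 was the only one of the 41 genes whose groups did not overlap (8.61% of all genes, 2.85% lower and 5.76% higher). The mean was 10.17 ± 0.18 in intermittent hypoxia and 10.66 ± 0.19 in normoxia (SD, n = 5 each). Mt2 thus fell by 0.48 in log2 units (SE 0.10, limma adjusted p = 0.0141) to 0.715 of its normoxia level, with a 95% interval of 0.613 to 0.835. It passed without each of the 10 arrays in turn, at differences from -0.54 to -0.43. Without normoxia arrays 2 to 4 together the difference was -0.37 and the limma adjusted p 0.302, with 2 normoxia arrays left.

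Mt1, its neighbour, gave 10.77, 10.88, 10.99, 10.62 and 10.50 on the hypoxia arrays, against 10.97, 11.07, 11.23, 11.04 and 11.04 on the normoxia arrays. The groups overlapped only in that hypoxia array 3 lay above normoxia array 1. The mean was 10.75 ± 0.20 in intermittent hypoxia and 11.07 ± 0.10 in normoxia (SD, n = 5 each), a fall to 0.805 of the normoxia level. Mt1 fell by 0.31 (SE 0.09, limma adjusted p = 0.0433). Mt1 did not pass without hypoxia array 1, 2, 4 or 5 or normoxia array 2, 3 or 4, at limma adjusted p values up to 0.109. With each of the 10 arrays left out in turn its difference lay between -0.37 and -0.25. Without normoxia arrays 2 to 4 together it was -0.25 (limma adjusted p = 0.544). The dimmer probe set of Mt1 gave a difference of -0.24 and did not pass (limma adjusted p = 0.116).

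**Figure D1:**
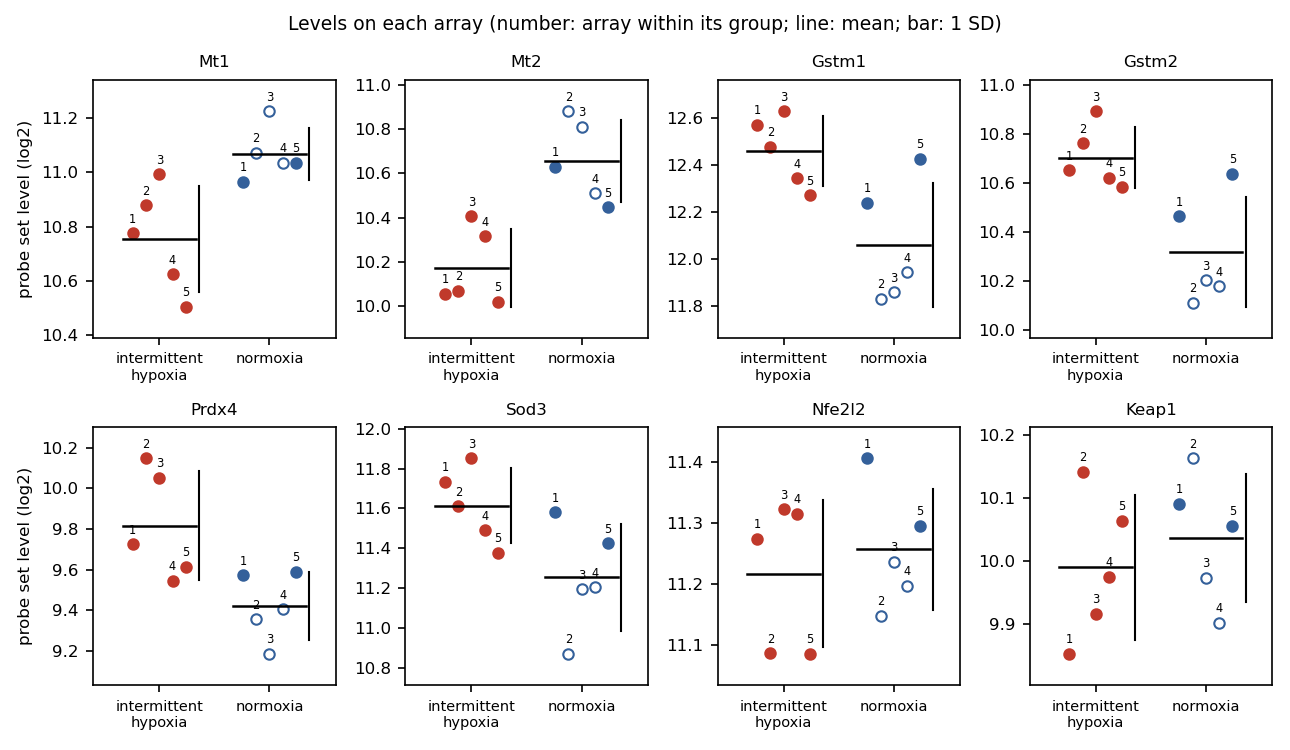
Log2 probe set levels of 8 genes on each array, intermittent hypoxia (red) left of normoxia (blue), with the array number at each point, a line at the mean and a bar of 1 SD. Each panel has its own vertical scale, and open points are normoxia arrays 2, 3 and 4. All 5 hypoxia arrays lie below all 5 normoxia arrays for Mt2, and the open points are the lowest for Gstm1 and Gstm2.

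Glucocorticoid hormones are known inducers of both metallothioneins, so a list of 20 direct glucocorticoid targets was set beside them. Of the 20, 11 fell and none rose, with a median difference of -0.49, against 3.60% of all genes lower and a median of 0.01. Its score, the mean of the centred log2 levels on an array, ran from -0.42 to -0.10 in intermittent hypoxia and from 0.18 to 0.39 in normoxia. The same score of the 2 metallothioneins ran from -0.40 to 0.04 in intermittent hypoxia and from 0.08 to 0.36 in normoxia. Hypoxia array 3 had the highest value of its group for both, as did normoxia array 3, but normoxia array 5 had the lowest metallothionein score of its group (0.08) and a glucocorticoid score of 0.32, above all but array 3. Both sets come from the same arrays. The 20 targets were listed with earlier results of these data known, so their count is no independent test. The part of glucocorticoid signalling in the metallothionein values was not tested.

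Of 13 other metal-response genes 2 rose and none fell (8.93% and 3.60% of all genes), with a median of -0.01. The rises were those of Slc39a8, a zinc and manganese importer (0.64, SE 0.13, limma adjusted p = 0.0138), and Atox1, a copper chaperone (0.57, SE 0.13, limma adjusted p = 0.0205). Mtf1, which encodes the zinc sensor, differed by -0.10 and did not pass (SE 0.09, limma adjusted p = 0.433). Mt3, the next gene in the metallothionein cluster, differed by -0.02 (SE 0.08) on a probe set below percentile 25 of levels.

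Gstm1 and Gstm2 encode mu-class transferases, which attach glutathione to electrophiles such as lipid peroxidation products. Gstm1 gave 12.57, 12.48, 12.63, 12.34 and 12.27 on the hypoxia arrays, against 12.24, 11.83, 11.86, 11.94 and 12.43 on the normoxia arrays. The groups overlapped because normoxia array 5 lay within the hypoxia range, while normoxia arrays 2, 3 and 4 were the lowest of all. The mean was 12.46 ± 0.15 in intermittent hypoxia and 12.06 ± 0.26 in normoxia (SD, n = 5 each), a difference of 0.40 (SE 0.12, limma adjusted p = 0.0441) or 1.32-fold.

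Gstm2, the adjacent gene, gave 10.65, 10.76, 10.89, 10.62 and 10.59 on the hypoxia arrays, against 10.46, 10.11, 10.20, 10.18 and 10.64 on the normoxia arrays. Normoxia array 5 was again the 1 array of its group that reached into the hypoxia range, and arrays 2, 3 and 4 were again the lowest. The mean was 10.70 ± 0.13 in intermittent hypoxia and 10.32 ± 0.22 in normoxia (SD, n = 5 each), a difference of 0.38 (SE 0.10, limma adjusted p = 0.0321) or 1.31-fold (95% interval 1.12 to 1.52).

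Neither call held without normoxia arrays 2 to 4. Without these 3 the differences were 0.12 for Gstm1 and 0.15 for Gstm2, with limma adjusted p values of 0.785 and 0.682. Left out singly, normoxia array 2, 3 or 4 or hypoxia array 1, 2 or 3 ended both calls, and hypoxia array 4 ended that of Gstm1. The limma adjusted p reached up to 0.112 for Gstm1 and 0.0852 for Gstm2, and the differences stayed between 0.33 and 0.49. Quantile normalization left 0.25 and 0.23, neither of which passed (limma adjusted p = 0.0778 and 0.0704).

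The probe set chosen for Gstm1 is of a kind, marked x in its name, that can bind near-identical relatives, so its signal may come from several family members. Those chosen for Gpx4 and Gsto1 carry the same mark. Another Gstm1 probe set without that mark gave a difference of 0.44 (SE 0.13, limma adjusted p = 0.0438), and the remaining 2 gave 0.01 and 0.22 and did not pass. In gene order along the cluster, Gstm5 differed by 0.10, Gstm7 by -0.13, Gstm6 by -0.08, Gstm3 by -0.18, Gstm2 by 0.38, Gstm1 by 0.40 and Gstm4 by 0.13. The 2 genes that rose were neighbours, and the other 5 did not pass, at limma adjusted p values of 0.0763 (Gstm3) to 0.488 (Gstm7).

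**Figure D2:**
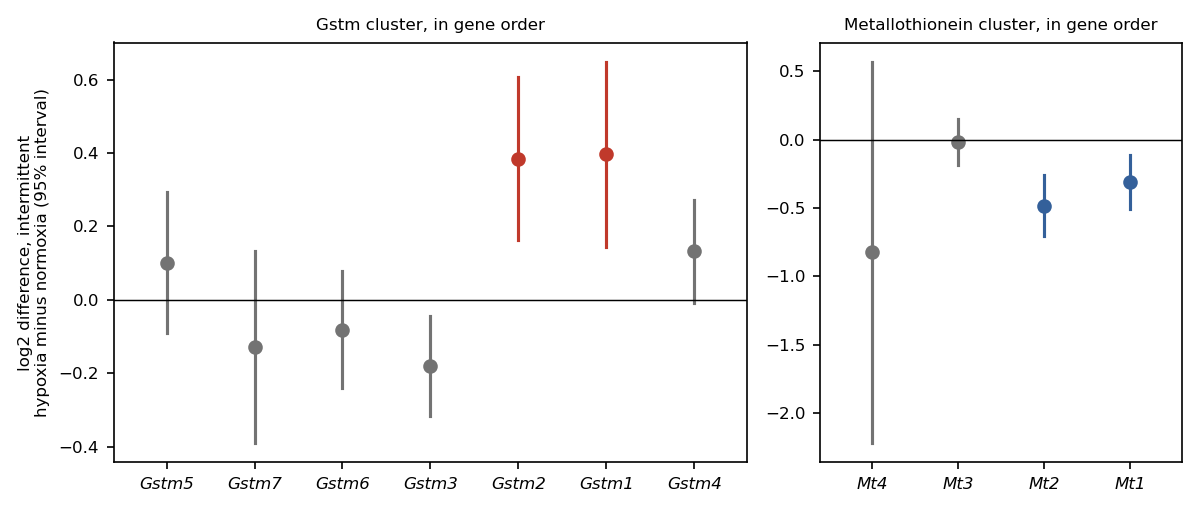
Log2 difference, intermittent hypoxia minus normoxia, with 95% intervals, for the genes of the Gstm and metallothionein clusters in their order on the chromosome (red higher, blue lower, grey not past the test). Gstm2 and Gstm1 at 0.38 and 0.40 stand beside members between -0.18 and 0.13, and the wide interval of Mt4 reflects 1 normoxia array.

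Glutathione is made by glutamate-cysteine ligase, with a catalytic subunit (Gclc) and a modifier subunit (Gclm), and glutathione synthetase (Gss). The 2 subunit genes had differences of opposite sign. Gclc gave 11.78, 11.85, 11.51, 12.44 and 12.07 on the hypoxia arrays, against 11.84, 11.40, 11.55, 11.48 and 11.90 on the normoxia arrays. The hypoxia arrays spread widely (SD 0.35, the largest of the 41 genes in this group) with array 4 the highest, and the difference of 0.30 (SE 0.15) did not pass (limma adjusted p = 0.201). Gclm gave 9.48, 9.61, 9.45, 9.70 and 9.84 on the hypoxia arrays, against 9.85, 9.68, 9.80, 9.87 and 9.98 on the normoxia arrays. Its difference was -0.22 (SE 0.08, limma adjusted p = 0.0933). With quantile normalization that of Gclm was -0.35 and passed (limma adjusted p = 0.0271). A test of the difference between the subunits was not run.

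The dimmer probe set of Gclc, named after its values were seen, did pass. It gave 10.92, 10.69, 10.71, 11.28 and 10.93 on the hypoxia arrays, against 10.67, 10.46, 10.53, 10.35 and 10.53 on the normoxia arrays, with no overlap. Its difference was 0.40 (SE 0.11, limma adjusted p = 0.0303). The call was lost without hypoxia array 1 or normoxia array 2, 3 or 4 (limma adjusted p up to 0.0824), and without those 3 normoxia arrays together the difference was 0.31 (limma adjusted p = 0.509). With quantile normalization it was 0.24 and did not pass (limma adjusted p = 0.188).

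The remaining genes of the glutathione class did not pass with the deposited values. Gss differed by -0.16 and the cystine importer gene Slc7a11 by -0.17. Slc7a11 was the only one of the 41 genes below percentile 25 of levels. Gsr, glutathione reductase, differed by 0.16. Among other transferases the differences were -0.21 for the omega-class Gsto1 (limma adjusted p = 0.0768), -0.20 for the alpha-class Gsta3, -0.06 for Gsta4, 0.10 for both Gstm5 and Gstt1, 0.22 for Gstt2 and 0.07 for the membrane-bound Mgst1. Of the 14 genes in the class, 8 had positive and 6 negative differences, with a median of 0.08. This too turned to -0.06, with 6 positive and 8 negative, both with quantile normalization and without normoxia arrays 2 to 4. The median over all genes was -0.01 with quantile normalization and 0.003 without normoxia arrays 2 to 4. Gsto1 and Gsta3 passed as lower with quantile normalization, at -0.37 and -0.35 (limma adjusted p = 0.0105 and 0.00852).

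Among 24 other glutathione enzymes 1 rose and 2 fell (8.93% and 3.60% of all genes), with a median of 0.05. Glrx, a glutaredoxin, rose by 0.24 (SE 0.06, limma adjusted p = 0.0253). The alpha-class transferase gene Gsta2 fell by 0.53 (SE 0.10, limma adjusted p = 0.0101), and Ggt5, a gamma-glutamyl transferase, fell by 0.54 (SE 0.16, limma adjusted p = 0.0415).

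None of the 12 superoxide and peroxide enzymes passed, with a median difference of 0.09, 9 positive and 3 negative. The sign of that median turned with quantile normalization (-0.04, 5 positive and 7 negative) and without normoxia arrays 2 to 4 (-0.03, again 5 and 7). In these 2 settings the median over all genes was -0.01 and 0.003. Prdx4, the peroxiredoxin of the endoplasmic reticulum, came nearest. It gave 9.72, 10.15, 10.05, 9.54 and 9.61 on the hypoxia arrays, against 9.57, 9.36, 9.18, 9.41 and 9.59 on the normoxia arrays. Hypoxia arrays 2 and 3 were the highest, and hypoxia array 4 lay below normoxia arrays 1 and 5. The difference was 0.40 (SE 0.12, limma adjusted p = 0.0520), or 1.32-fold with a 95% interval of 1.10 to 1.58. It passed with 4 of the 10 arrays left out singly, and the difference was 0.24 without normoxia arrays 2 to 4. Its other probe sets gave 0.19 and -0.14.

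Sod3 encodes the secreted superoxide dismutase of the lung's vessels and matrix. Its log2 levels were 11.73, 11.61, 11.85, 11.49 and 11.38 on the hypoxia arrays, against 11.58, 10.87, 11.19, 11.20 and 11.42 on the normoxia arrays. The groups overlapped at hypoxia arrays 4 and 5 and normoxia arrays 1 and 5, and normoxia array 2 was the lowest. The difference of 0.36 (SE 0.13) did not pass (limma adjusted p = 0.0766).

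The dimmer probe set of Sod3, again named after its values were seen, gave 9.32, 9.10, 9.49, 9.24 and 8.64 on the hypoxia arrays, against 8.75, 7.81, 7.92, 8.24 and 8.70 on the normoxia arrays. Only hypoxia array 5 reached into the normoxia range. The difference was 0.87 (SE 0.19, limma adjusted p = 0.0165), or 1.83-fold, and it passed with each single array left out, at 0.75 to 1.00. Without normoxia arrays 2 to 4 together it was 0.43 (limma adjusted p = 0.444).

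Prdx3, the mitochondrial peroxiredoxin, gave 9.68, 9.89, 9.75, 9.62 and 9.53 on the hypoxia arrays, against 9.70, 9.33, 9.36, 9.39 and 9.60 on the normoxia arrays. Normoxia arrays 2, 3 and 4 were the lowest, arrays 1 and 5 lay within the hypoxia range, and the difference of 0.22 (SE 0.09) did not pass (limma adjusted p = 0.122). The difference was 0.04 without those 3 arrays.

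The other superoxide and peroxide enzymes differed by less. The cytosolic Sod1 differed by 0.06 and the mitochondrial Sod2 by -0.05, with 95% intervals of -0.13 to 0.25 and -0.22 to 0.11. Catalase (Cat) differed by 0.15 and Prdx2 by 0.16. Of the glutathione peroxidases, Gpx1 differed by 0.02, Gpx2 by -0.08, the secreted Gpx3 by -0.04, Gpx4, which reduces lipid peroxides in membranes, by 0.07, and Gpx7 by 0.11. The other probe set of Gpx4 gave 0.38 (SE 0.12) and did not pass (limma adjusted p = 0.0617).

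Prdx2, Cat and Gpx1 are abundant in red cells. Of 3 red cell markers measured 1 fell, Slc4a1 (-1.03, SE 0.15, limma adjusted p = 0.00409), against 3.60% of all genes. The median difference of the 3 was -0.39, and the haemoglobin gene Hba-a1 differed by only -0.06. The score of the 3 markers ran from -0.48 to -0.09 in intermittent hypoxia and from 0.04 to 0.62 in normoxia, without overlap. The part of red cells in the values of these enzymes was not tested.

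The thioredoxin system had 5 positive and 1 negative difference among 6 genes, a median of 0.11 and no call. Thioredoxin itself (Txn1) gave 12.63, 12.81, 12.56, 12.59 and 12.47 on the hypoxia arrays, against 12.52, 12.43, 12.14, 12.26 and 12.55 on the normoxia arrays, a difference of 0.23 (SE 0.09, limma adjusted p = 0.102). Txnrd1, the cytosolic thioredoxin reductase, gave 10.14, 10.23, 10.03, 10.12 and 10.03 on the hypoxia arrays, against 10.10, 9.87, 9.75, 9.70 and 10.05 on the normoxia arrays, a difference of 0.22 (SE 0.08, limma adjusted p = 0.104). For both genes normoxia arrays 2, 3 and 4 were the lowest, and without them the differences were 0.08 and 0.04.

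Srxn1, which repairs over-oxidised peroxiredoxins, gave 7.98, 7.99, 7.79, 7.88 and 7.94 on the hypoxia arrays, against 7.83, 7.79, 7.60, 7.60 and 7.80 on the normoxia arrays. Hypoxia array 3 alone lay within the normoxia range, and the difference of 0.19 (SE 0.07) did not pass (limma adjusted p = 0.0893). The mitochondrial genes Txn2 and Txnrd2 differed by 0.01 and 0.02. Txnip, whose product binds and inhibits thioredoxin, differed by -0.09 (SE 0.09, limma adjusted p = 0.508). With quantile normalization its difference was -0.22 and passed (limma adjusted p = 0.047).

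The probe sets of Txn1 disagreed. The second and dimmer one, singled out after its values were seen, gave 9.38, 8.76, 9.27, 9.40 and 9.65 on the hypoxia arrays, against 10.06, 10.56, 11.23, 11.14 and 9.72 on the normoxia arrays. All hypoxia arrays were lower, and normoxia arrays 3 and 4, the lowest for the brighter probe set, were the highest for this one. Its difference was -1.25 (SE 0.26, limma adjusted p = 0.0137), or 0.421 of the normoxia level. It passed with each single array left out, at -1.45 to -1.08, and was -0.60 without normoxia arrays 2 to 4 (limma adjusted p = 0.306). The direction of Txn1 therefore depended on the probe set, and the cause was not tested.

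Of 21 genes with more than 1 probe set, 13 had differences of 1 sign and 8 had both. Among 29 probe sets that did not represent their gene 4 passed, 1 each of Sod3, Gclc, Gstm1 and Txn1, against 11.9% of all probe sets, and the first 3 had the sign of the brighter probe set.

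**Figure D3:**
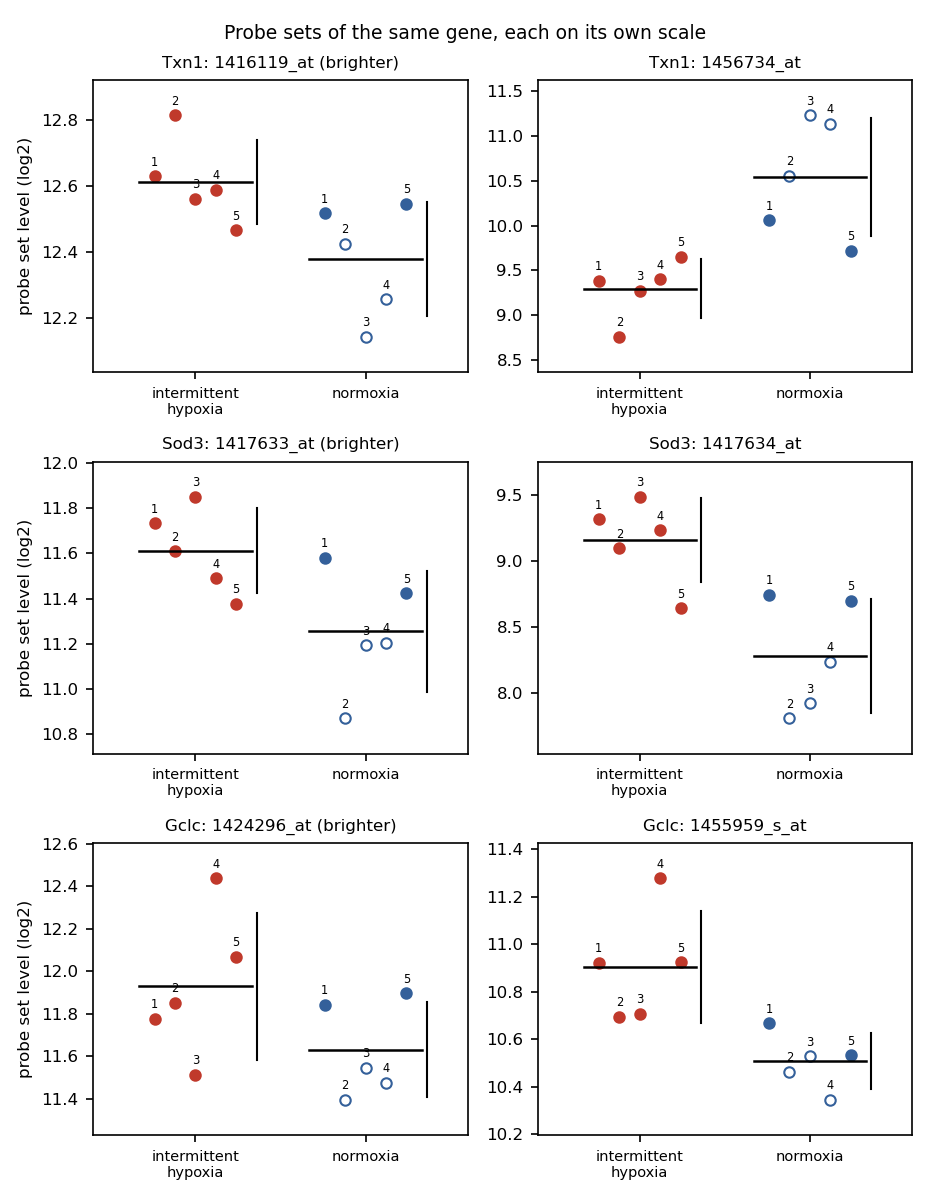
Log2 levels of the brighter (left) and dimmer (right) probe set of Txn1, Sod3 and Gclc on each array, intermittent hypoxia (red) left of normoxia (blue), with a line at the mean, a bar of 1 SD and open points for normoxia arrays 2, 3 and 4. Each panel has its own vertical scale. The 2 probe sets of Txn1 differ in sign (0.23 and -1.25), while those of Sod3 and Gclc are both higher.

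The regulators did not pass. Nfe2l2, which encodes NRF2, gave 11.27, 11.09, 11.32, 11.31 and 11.09 on the hypoxia arrays, against 11.41, 11.15, 11.24, 11.20 and 11.30 on the normoxia arrays. The groups overlapped over most of their range. The mean was 11.22 ± 0.12 in intermittent hypoxia and 11.26 ± 0.10 in normoxia (SD, n = 5 each), and the 95% interval of the fold ran from 0.870 to 1.09 (limma adjusted p = 0.742).

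Keap1, which encodes the inhibitor of NRF2, gave 9.85, 10.14, 9.92, 9.98 and 10.06 on the hypoxia arrays, against 10.09, 10.16, 9.97, 9.90 and 10.06 on the normoxia arrays. The difference was -0.05 (SE 0.07, limma adjusted p = 0.692), and the 95% interval of the fold ran from 0.867 to 1.08. The dimmer probe set of Keap1 had the opposite sign, at 0.22 (SE 0.18, limma adjusted p = 0.427). Its 95% interval of the fold was wider, from 0.887 to 1.53. Transcript levels do not report the activity of either protein.

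Of the enzymes grouped with the regulators, Ephx1, microsomal epoxide hydrolase, gave 11.38, 11.54, 11.63, 11.12 and 11.14 on the hypoxia arrays, against 11.46, 11.05, 11.00, 11.08 and 11.15 on the normoxia arrays. Hypoxia arrays 1 to 3 and normoxia array 1 stood above the rest, and the difference was 0.22 (SE 0.11, limma adjusted p = 0.214).

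Haem oxygenase 1 (Hmox1), a sensitive NRF2 target, gave 8.00, 7.69, 7.77, 8.00 and 7.99 on the hypoxia arrays, against 7.77, 7.46, 7.62, 7.77 and 7.80 on the normoxia arrays. Hypoxia arrays 1, 4 and 5 lay above all normoxia arrays, and the difference was 0.21 (SE 0.09, limma adjusted p = 0.134). Akr1b8, an aldo-keto reductase, gave 9.57, 9.55, 9.46, 9.19 and 9.24 on the hypoxia arrays, against 9.56, 9.54, 9.51, 9.55 and 9.42 on the normoxia arrays. Hypoxia arrays 4 and 5 were the lowest, and the difference was -0.11 (SE 0.08, limma adjusted p = 0.370). The quinone reductase Nqo1 differed by -0.03 and the carbonyl reductase Cbr1 by 0.03.

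For the 37 genes that did not pass, the intervals describe the chosen probe set only. Other probe sets of some of these genes, Txn1, Sod3, Gpx4 and Keap1 among them, had differences outside these intervals. In 26 of the 37 genes the 95% interval lay within 1.3-fold in either direction, and in 34 within 1.5-fold. The 3 with wider intervals were Prdx4, Sod3 and Gclc, all on the side of higher levels in intermittent hypoxia.

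**Figure D4:**
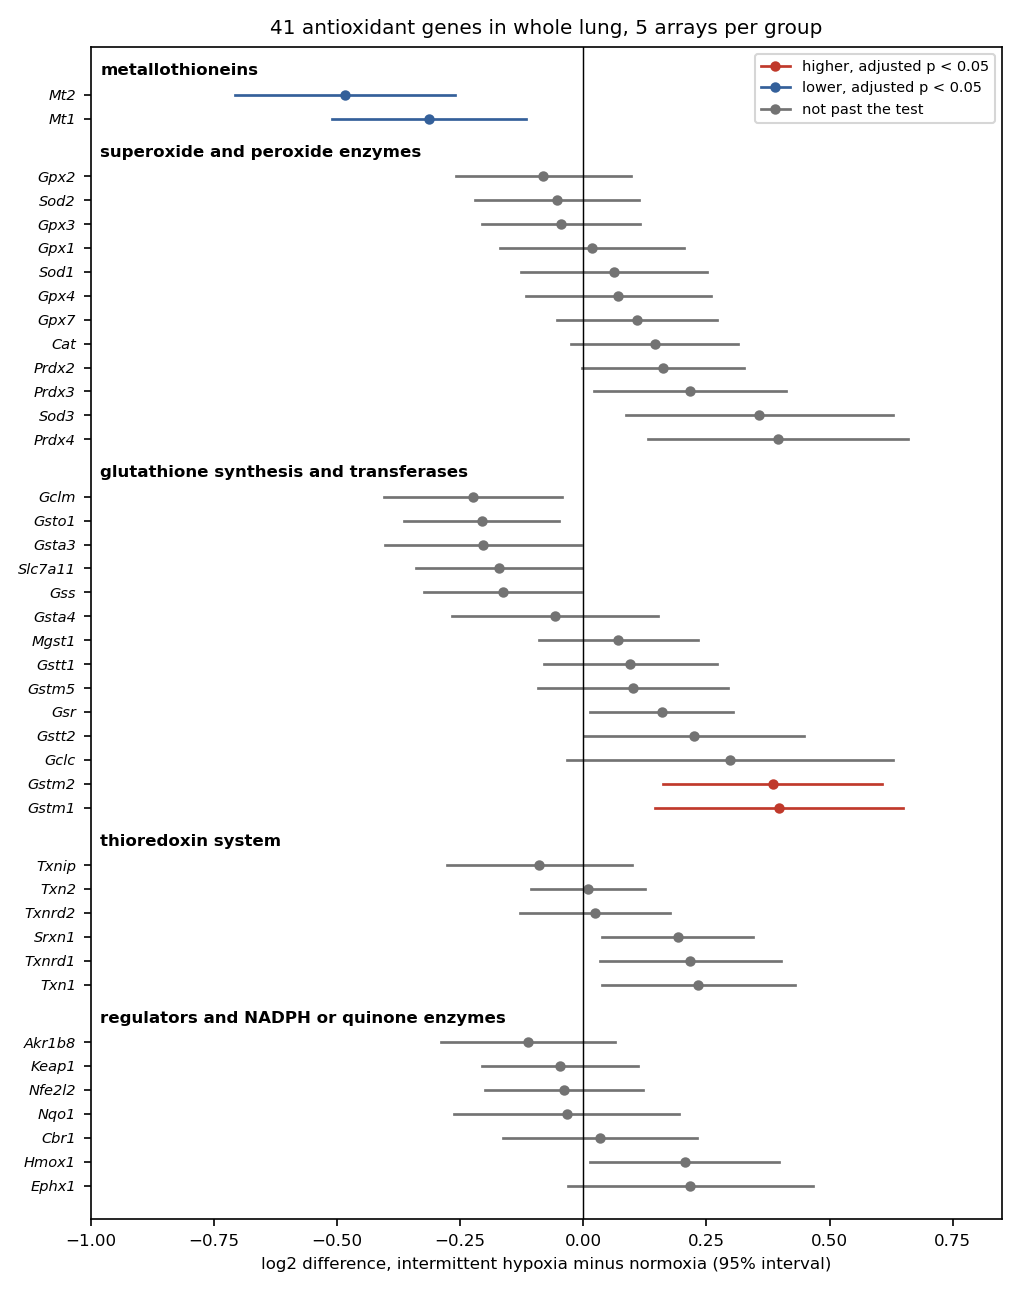
Log2 difference, intermittent hypoxia minus normoxia, with its 95% interval for each of the 41 measured genes, grouped by role (red higher, blue lower, grey not past the test). Mt1 and Mt2 lie below 0 and Gstm1 and Gstm2 above, and the other 37 genes did not pass.

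By array, the role classes overlapped between the groups except for the metallothioneins. The score of the superoxide and peroxide enzymes ran from -0.05 to 0.18 in intermittent hypoxia and from -0.20 to 0.09 in normoxia, where arrays 1 and 5 had 0.07 and 0.09. The glutathione class ran from 0.00 to 0.08 in intermittent hypoxia and from -0.13 to 0.11 in normoxia, with arrays 2 to 4 below all hypoxia arrays and array 5 above them. The thioredoxin class ran from -0.01 to 0.11 in intermittent hypoxia and from -0.18 to 0.03 in normoxia, again with arrays 2 to 4 below all hypoxia arrays. Without normoxia arrays 2 to 4 the median difference of the 41 genes was -0.01, against 0.06 with all arrays, and that of the metallothioneins was -0.31, against -0.40. Quantile normalization turned the median of the 41 genes to -0.06 and left the metallothioneins at -0.56. The median over all genes was 0.003 without normoxia arrays 2 to 4 and -0.01 with quantile normalization.

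**Figure D5:**
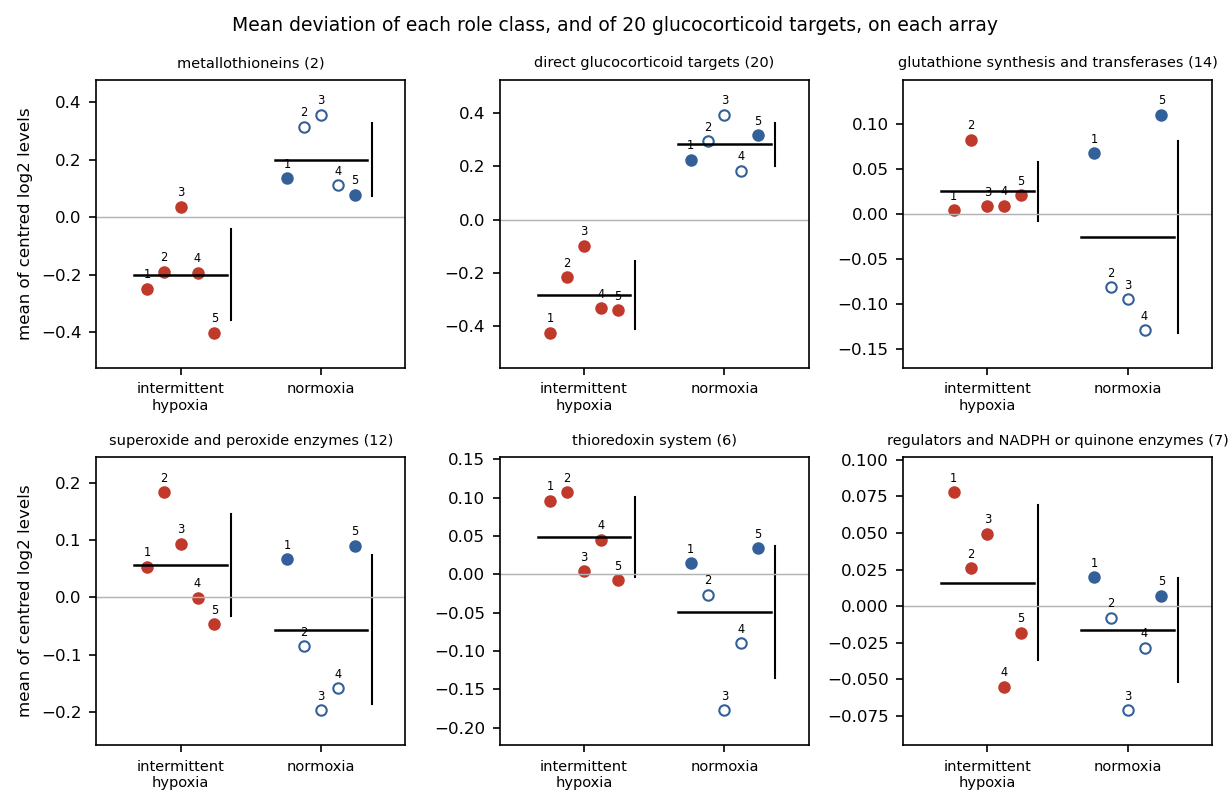
Score of each role class and of 20 direct glucocorticoid targets on each array, as the mean of log2 levels centred per gene (number of genes in each title), intermittent hypoxia (red) left of normoxia (blue), with a line at the mean, a bar of 1 SD and open points for normoxia arrays 2, 3 and 4. The metallothionein and glucocorticoid scores separate the groups, and in the glutathione, thioredoxin, and superoxide and peroxide classes the open points lie lowest.

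Other redox genes outside these classes changed singly. For comparison, 8.93% of all genes were higher and 3.60% lower. Of 24 partners of NRF2 and further stress targets 3 rose and 1 fell (median 0.13), namely the autophagy receptor gene Sqstm1 (0.57, SE 0.15, limma adjusted p = 0.0288), Bach2, Cul3, and the aldehyde dehydrogenase gene Aldh3a1, which fell by 0.75 (SE 0.14, limma adjusted p = 0.00842). In a list of 19 methionine sulfoxide, selenium and other redox genes, Oxr1 and Selenof rose and Selenbp1 fell (median 0.11). Of 9 genes of NADPH supply only the NAD kinase gene Nadk rose (0.32, SE 0.07, limma adjusted p = 0.0147), with none lower. Among 8 genes listed under lipid peroxides and ferroptosis, Lpcat3 and Tfrc rose and Alox15 fell.

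On the side of oxidant production 4 of 13 genes rose and none fell (8.93% and 3.60% of all genes), with a median of 0.17. These were Maoa, a monoamine oxidase (0.62, SE 0.15, limma adjusted p = 0.0223), and the phagocyte NADPH oxidase genes Rac2 (0.49), Ncf4 (0.46) and Cyba (0.46). Of 5 macrophage markers 3 rose, Cd68 with 0.74, and their score ran from -0.29 to 0.52 in intermittent hypoxia and from -0.32 to -0.15 in normoxia. Of 6 neutrophil markers none rose and 2 fell, and their score ran from -0.43 to 0.11 in intermittent hypoxia and from -0.36 to 0.91 in normoxia. All 3 B cell markers rose, and their score ran from 0.02 to 0.94 in intermittent hypoxia and from -1.15 to 0.07 in normoxia. Of 5 adipose markers 1 fell, Retn, and all 5 differences were negative (median -0.35). Their score ran from -0.93 to 0.04 in intermittent hypoxia and from -0.16 to 0.89 in normoxia. Of 4 fibroblast markers 2 rose and of 4 endothelial markers 1 did, Emcn (1.03, SE 0.08, limma adjusted p = 9.34e-05). The fibroblast score ran from 0.081 to 0.261 in intermittent hypoxia and from -0.470 to 0.078 in normoxia. The endothelial score ran from 0.10 to 0.34 in intermittent hypoxia and from -0.46 to 0.04 in normoxia. Neither score overlapped between the groups. Both were lowest on normoxia arrays 2, 3 and 4, at -0.47 to -0.21 for fibroblasts and -0.46 to -0.33 for endothelium. The part of these cells in the oxidase genes, and of adipose tissue and other cell types in the metallothionein and antioxidant genes, was not tested.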

How the data were processed

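Affymetrix Mouse Genome 430A 2.0 arrays measured whole-lung RNA of 10 mice. The deposited table held log2 probe set levels. Per the submitters' processing notes the tools were RMA and affy, of unstated version and settings. The usual quantile step of RMA leaves arrays with nearly equal spread, and the spreads here differ, so how these arrays were normalized is not known. Medians per array were 7.69 to 7.73, and precision is limited by how few arrays there are. Of 22626 probe sets, 20380 had 1 symbol, 691 several and 1555 none here. All were tested without a filter on low values, with limma 3.58.1 in R 4.3.3 (lmFit and eBayes, two-sided), and a probe set was called at a p below 0.05 after Benjamini-Hochberg adjustment over the whole array. The spread tested is that between animals.

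The genes, lists and tests were chosen with earlier results of these data known. Every measured member could be named. Values on each array were given for those past the test, Nfe2l2, Keap1, Mt1, Mt2 and the 3 with the largest difference in each larger role class, and other lists by up to 4 genes past the test with the smallest p. Gclm and 3 further probe sets were added after their values were seen. Promoter windows came from RefSeq. Tests were checked on simulated data.

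The alternatives were to leave out each array, average a gene's probe sets, weight arrays (arrayWeights), call at an adjusted p below 0.10, use eBayes trend and robust options, keep the brighter probe sets (median level and above), centre arrays on medians, normalize by quantiles, block on the replicate number, or use SAM with 100 permutations. SAM with the mean number of false calls, and leaving out normoxia arrays 2 to 4 together, were added after the data were seen.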

Additional observations from a re-analysis of the deposited data

Results flagged for a closer look

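Each of the 41 genes was checked in each group for a single array far from the other 4, which made 82 checks, and chance flags about 1 in 20 groups. There were 2 such arrays. Gpx2, a glutathione peroxidase of epithelia, was high on normoxia array 5 at 9.82, against 9.39 to 9.52 on the other normoxia arrays. Gpx4 was high on hypoxia array 2 at 12.05, against 11.79 to 11.84 on the other hypoxia arrays. Neither gene passed the comparison between the groups.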

How the results depend on the processing

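The counts of 2 higher and 2 lower genes moved with the processing. SAM gave 6 higher and 4 lower genes and 5348 probe sets over the array, against 2699 with limma, while SAM with the mean number of false calls gave 2, 2 and 3113. An adjusted p below 0.10 gave 5, 4 and 4954 probe sets. Quantile normalization gave 0 higher and 6 lower, adding Gclm, Gsta3, Gsto1 and Txnip to the metallothioneins, and 59.1% of all calls were then higher, against 71.2% with the deposited values. Averaging each gene's probe sets gave 5 lower genes, and it reversed Txn1 to -0.51 because its probe sets disagree in sign. arrayWeights gave 4132 probe sets. Same-numbered arrays did not vary together in all pairs (r from -0.24 to 0.22). Hypoxia arrays 1, 2 and 4 varied most with the normoxia array of their own number, and arrays 3 and 5 with another. These correlations do not settle whether the numbers pair the arrays. A replicate block gave 0 higher genes and 1755 probe sets. Without normoxia arrays 2 to 4 together no gene passed in either direction (0 higher, 0 lower) and 16 probe sets did, with 2 normoxia arrays left. With single arrays left out the counts ran from 0 to 5 higher, 1 to 2 lower and 1003 to 4800 probe sets. The count of higher genes was 0 without hypoxia array 1, 2 or 3 or normoxia array 2, 3 or 4, and 5 without normoxia array 1 or 5. The cause was not tested. Mt2 passed under every alternative except that without normoxia arrays 2 to 4.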

Other observations

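Mt4, a metallothionein of stratified epithelia, was named after its values were seen. Its level was 5.07 to 5.19 on the hypoxia arrays, against 9.24 on normoxia array 2 and 5.12 to 5.15 on the other normoxia arrays. The difference of -0.83 (SE 0.65) did not pass (limma adjusted p = 0.401) and rests on that array.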
